A study of Brachypodium distachyon with 45 samples.

Results

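Leaf RNA of the Brachypodium distachyon genotypes ABR8 and KOZ1 was compared before any water was withheld, over the 18741 loci that reached 1 FPKM in at least 1 of both genotypes. FPKM counts sequenced fragments relative to the length of the transcript and to the number of mapped fragments in the library, so levels of different genes can be set side by side. These loci were 55.4% of the 33852 loci in the deposited table, and 18119 of them were above 0 in both genotypes. Brachypodium is a small wild grass used as a model of the temperate cereals, and the labels class ABR8 as drought tolerant and KOZ1 as highly susceptible, with ABR4 between them.

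Leaves were taken from separate plants, 3 for each genotype at each point, grown with full watering for 32 days after germination (T0). Water was then withheld from some plants. Leaves of watered (control) and unwatered (drought) plants were taken 4 days later (T1), and again from other plants on day 8 of the treatment (T2). All samples were whole leaves, so fewer cells of a type and less RNA per cell cannot be told apart. The table holds 1 pooled FPKM per group of 3 libraries with 95% limits, so each level stands here with the authors' limits instead of a spread over plants, and the depth of a library cannot be read from it.

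Some labels of these groups conflict. The 3 KOZ1 libraries of T0 are titled control but carry the treatment entry for no watering, and the same entry is exchanged between control and drought in 12 ABR8 libraries of T1 and T2, 15 libraries in all. Groups were taken from the titles, under which the T0 libraries of both genotypes precede the drought. The sequencing lane codes also differed, L2 for ABR8 and L3 for KOZ1 at T0, so lane code and genotype cannot be told apart. Reads of every genotype were mapped to 1 reference genome, so a sequence that maps poorly in a genotype and less RNA in that genotype cannot be told apart either.

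Many of the genes described by the study act in the primary cell wall of grasses, in which cellulose fibres are held in a matrix of xyloglucan, mixed-linkage glucan, xylan and pectin. Expansins loosen this network, glycoside hydrolases cut its polymers and some also rejoin them, and glycosyltransferases build them. Class III peroxidases and laccases couple phenolic groups and lignin, which stiffens the wall. The gene described as ribulose-bisphosphate carboxylase (Bradi5g04080), the carbon-fixing enzyme of green leaves, was at 149.7 FPKM in ABR8 and 139.8 FPKM in KOZ1, and was the only leaf gene that could be checked by its description.

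Most loci differed little between the genotypes. The median log2 ratio of ABR8 to KOZ1 was 0.02, the middle 50% of loci lay between -0.28 and 0.35, and 5% lay below -1.35 and 5% above 1.38. A 2-fold difference was seen in 1803 loci towards ABR8 and 1522 towards KOZ1, but the limits of most of them were wide. The median standard error that the limits imply was 0.240 of the level in ABR8 and 0.234 in KOZ1.

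A locus was called where the ratio reached 2-fold and the adjusted p was at most 0.05 in a z-test on log FPKM, with standard errors taken from the authors' limits and Benjamini-Hochberg adjustment over all loci tested. In this test 272 loci were higher in ABR8 (1.45% of the loci at 1 FPKM or more, against 0.987% of all 27658 loci tested) and 270 were higher in KOZ1 (1.44%, against 0.983%). At an unadjusted p of 0.05 the counts among the loci at 1 FPKM or more were 959 towards ABR8 and 822 towards KOZ1, and over all loci tested they were 1024 (3.70%) and 889 (3.21%). The called loci were split almost evenly between the genotypes.

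A sizeable part of the called loci were near absent in the lower genotype. Of the 272 loci higher in ABR8, 68 were listed at 0 in KOZ1, 61 were above 0 but under 1 FPKM, and 143 were at 1 FPKM or more in both. Of the 270 loci higher in KOZ1, 47 were listed at 0 in ABR8, 94 were above 0 but under 1 FPKM, and 129 were at 1 FPKM or more in both. A group at 0 has limits of 0, so its test rests on the error of the other group alone. The median level of the loci higher in ABR8 was 12.3 FPKM in ABR8 and 1.20 FPKM in KOZ1, and that of the loci higher in KOZ1 was 0.855 FPKM in ABR8 and 11.5 FPKM in KOZ1. The median log2 ratio where both were above 0 was 2.40 for the loci higher in ABR8 and -2.72 for those higher in KOZ1.

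**Figure D1:**
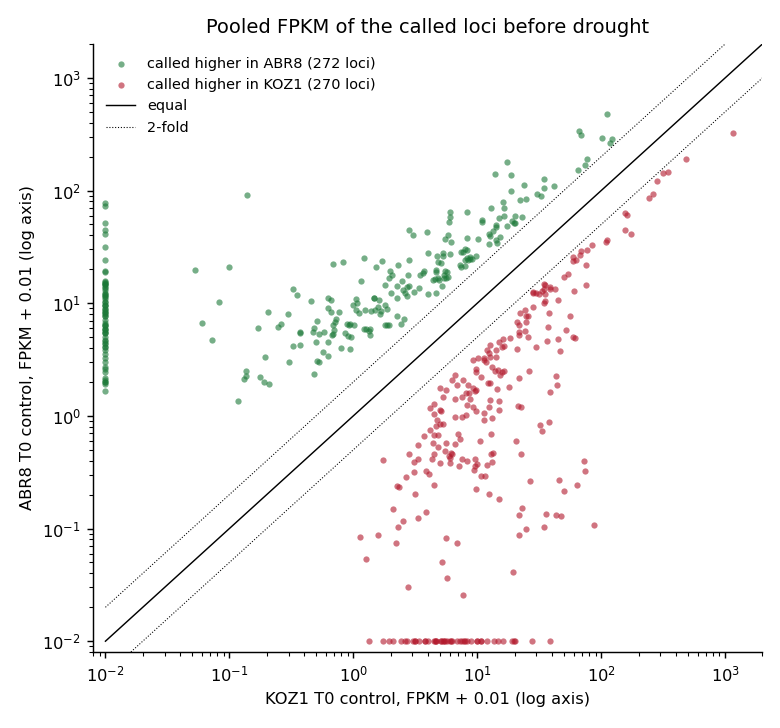
Pooled FPKM at T0 of the 272 loci called higher in ABR8 (green) and the 270 called higher in KOZ1 (red), KOZ1 on the x axis and ABR8 on the y axis, both log axes with 0.01 added so that loci at 0 can be drawn. The 68 green points on the left edge were listed at 0 in KOZ1 and the 47 red points on the bottom edge were listed at 0 in ABR8, and all other points lie outside the dotted 2-fold lines.

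Many loci listed at 0 in a genotype stayed at 0 in other plants of it. Of the 68 loci at 0 in KOZ1 at T0, 47 were listed at 0 in the KOZ1 controls of T1, 55 in those of T2, 63 in the KOZ1 drought group of T1 and 65 in that of T2. Of the 47 loci at 0 in ABR8 at T0, 36 were listed at 0 in the ABR8 group titled control at T1, 32 in that of T2 and 32 in the group titled drought at T2, but 19 in the group titled drought at T1. The ABR8 group titled drought at T1 thus held reads at more of these loci than the other ABR8 groups. The ABR4 group titled drought at T1 stood apart as well. Of the loci called higher in ABR8, 50 were listed at 0 in ABR4 at T0, of which 41 and 43 were at 0 in the ABR4 controls of T1 and T2, 30 in its drought group of T2 and 0 in the one titled drought at T1. Bradi1g22750, at 180 FPKM in ABR8 and 17.3 FPKM in KOZ1 at T0, was at 107 FPKM in that ABR4 group and at 24.6 to 29.5 FPKM in the others. Neither drought group of T1 enters the calls at T0 or their repeat in the controls.

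Bradi4g43450, a protein-coding gene without a description, had the highest level in ABR8 among the loci of a single identifier called higher there with under 1 FPKM in KOZ1. Bradi4g43450 (chromosome 4, 47090279 to 47094532, assembly v3.0) was at 91.6 FPKM (95% limits 58.8 to 124) in ABR8 and 0.128 FPKM (0 to 0.348) in KOZ1. It was at 160 and 0.124 FPKM in the ABR8 and KOZ1 controls of T1 and at 214 and 0.169 FPKM in those of T2, and at 93.7 FPKM in ABR4 at T0. KOZ1 was therefore near 0 for this gene at all 3 times, with ABR4 at the level of ABR8.

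Bradi1g01660, also without a description, held the same place among the loci higher in KOZ1. Bradi1g01660 (chromosome 1, 1097854 to 1099942) was at 0.315 FPKM (0 to 0.728) in ABR8, 74.0 FPKM (50.0 to 98.0) in KOZ1 and 31.1 FPKM in ABR4. Its controls were at 0.0684 and 69.5 FPKM in ABR8 and KOZ1 at T1 and at 0.111 and 50.8 FPKM at T2. The ABR8 group titled drought at T1 was at 7.82 FPKM, above every other ABR8 group.

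Among called loci of a single identifier at 1 FPKM or more in both genotypes, Bradi4g30081 had the highest ratio towards ABR8 and Bradi3g28513 the highest towards KOZ1. Bradi4g30081 (chromosome 4, 35666198 to 35683559) was at 25.3 FPKM (10.7 to 39.8) in ABR8 and 1.20 FPKM (0 to 2.90) in KOZ1, a log2 ratio of 4.40 ± 1.13 (SE). It overlaps 2 other loci, and whether the counting used strand is not given in the sources used here, so its level is uncertain. Its call was lost in a z-test on the difference in FPKM instead of the log. Bradi3g28513 (chromosome 3, 29631361 to 29632744) was at 1.63 FPKM (0 to 3.27) in ABR8 and 38.3 FPKM (20.8 to 55.8) in KOZ1, a log2 ratio of -4.55 ± 0.81 (SE). It was 1.28 and 42.0 FPKM in the controls of T1 and 1.30 and 38.2 FPKM in those of T2, and 15.5 FPKM in the ABR8 group titled drought at T1.

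The study's own tables describe 139 of the loci, of which 128 reached 1 FPKM. They were picked for their response to drought, or for differing across all groups, in these same samples. Their direction at T0, T1 or T2 is therefore not independent evidence. Of the 128 genes, 10 were called higher in ABR8 and 5 higher in KOZ1, where the shares of all loci at 1 FPKM or more were 1.45% and 1.44% and those of all loci tested 0.987% and 0.983%. Their median log2 ratio was 0.30, against 0.02 for all loci at 1 FPKM or more. The tables differed: of the 6 genes drawn from the response of ABR8 at T1, all were below 0, with a median of -2.08, and 2 were called higher in KOZ1. That response rests on the ABR8 group titled drought at T1, which stood apart above by its reads at loci listed at 0 in ABR8. Whether that group affected the direction of these 6 genes was not tested. The cell wall genes came from a clustering of all groups, from clusters that the study describes as higher in ABR8. A lean above 0 was thus built into that list. Of the 49 such genes, 38 were above 0 and 9 below, with a median of 0.45. In the z-test 5 were called higher in ABR8 and 0 in KOZ1 (11 and 1 at an unadjusted p of 0.05).

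**Figure D2:**
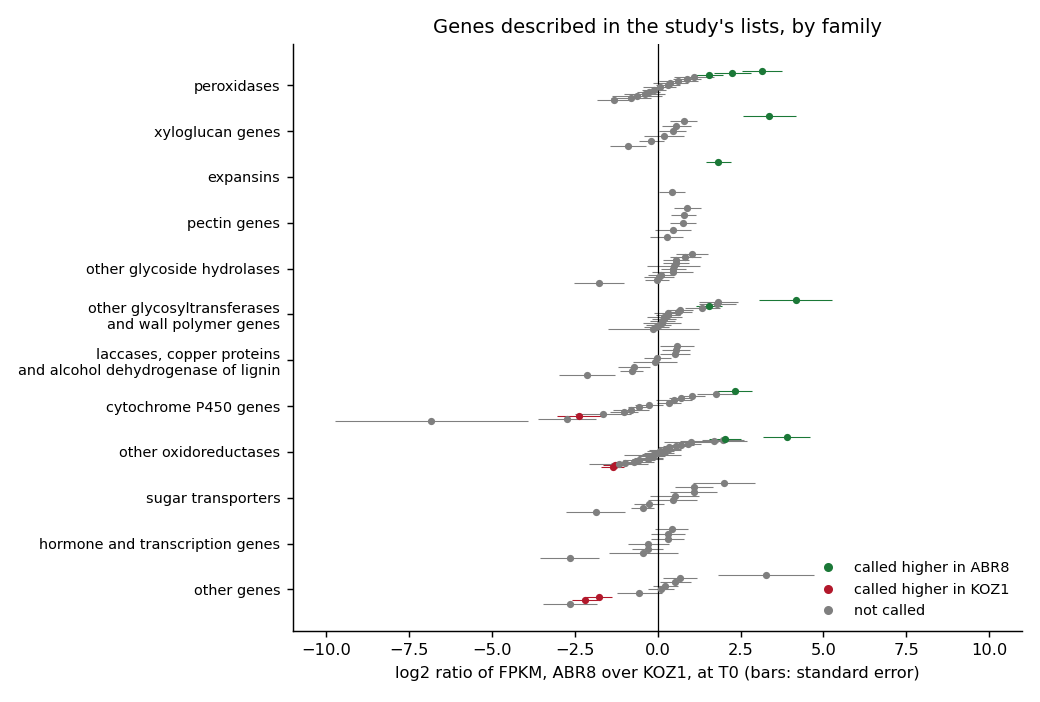
Log2 ratio of ABR8 to KOZ1 at T0 for each gene that the study describes and that was above 0 in both genotypes, grouped by family, with bars of 1 standard error. Green points were called higher in ABR8, red points higher in KOZ1 and grey points were not called. Of the 15 peroxidases 3 are green. The pectin genes, all from the cell wall list picked as higher in ABR8, lie right of 0 with none called.

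Peroxidases were the described family with the most calls towards ABR8: 3 of 15 were higher in ABR8 and none was called higher in KOZ1. Of the 15, 9 were above 0 and 6 below, and the median was 0.31. Of all loci at 1 FPKM or more, 1.45% and 1.44% were called, shares that stand beside each family count below. The families hold only genes of the study's lists, so their counts describe those lists and not whole gene families. The expansins, xyloglucan genes, pectin genes and other glycosyltransferases and wall polymer genes all came from the cell wall list, with its built-in lean above 0. Class III peroxidases of the wall use hydrogen peroxide to couple phenolic groups. Bradi1g17850 (chromosome 1, 14466226 to 14467916) was at 17.9 FPKM (10.5 to 25.4) in ABR8 and 2.03 FPKM (0.601 to 3.47) in KOZ1, a log2 ratio of 3.14 ± 0.60 (SE). Its neighbour Bradi1g17840 (14463146 to 14465345) was at 16.9 FPKM (10.5 to 23.3) in ABR8 and 5.80 FPKM (3.14 to 8.45) in KOZ1, a log2 ratio of 1.55 ± 0.44. Its call too was lost in the z-test on the difference. Both genes were at intermediate or higher levels in ABR4, at 7.10 FPKM for Bradi1g17850 and 28.3 FPKM for Bradi1g17840.

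The third called peroxidase, Bradi2g04490, described as peroxidase 25 (chromosome 2, 3158087 to 3162703), was at 8.86 FPKM (4.92 to 12.8) in ABR8, 1.86 FPKM (0.686 to 3.03) in KOZ1 and 3.87 FPKM in ABR4. Its log2 ratio was 2.25 ± 0.57 (SE). The most abundant members of the family differed less. Bradi1g65820, described with a cytochrome-c peroxidase activity, was at 140 FPKM in ABR8 and 169 FPKM in KOZ1, and Bradi2g38660 was at 85.7 and 69.2 FPKM. The lowest ratio was that of Bradi2g13190, at 4.26 FPKM in ABR8 and 10.6 FPKM in KOZ1, which was not called.

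Of the 2 described expansins, Bradi2g22290 was called and Bradi2g53580 was not. Bradi2g22290, described as expansin-A4 (chromosome 2, 19821758 to 19823699), was at 58.8 FPKM (38.3 to 79.4) in ABR8, 16.6 FPKM (10.1 to 23.0) in KOZ1 and 13.9 FPKM (8.46 to 19.4) in ABR4. The log2 ratio was 1.83 ± 0.39 (SE), and ABR8 stood above both other genotypes with limits that did not overlap theirs. Bradi2g53580 was at 29.4 FPKM (18.3 to 40.6) in ABR8 and 21.9 FPKM (13.7 to 30.2) in KOZ1, with overlapping limits.

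Xyloglucan genes had 1 call in 7. The xyloglucan fucosyltransferase gene Bradi3g10230 (family GT37, chromosome 3, 8376028 to 8378550), whose product adds fucose to the side chains of xyloglucan, was at 5.35 FPKM (2.69 to 8.01) in ABR8, 0.520 FPKM (0.0187 to 1.02) in KOZ1 and 0.729 FPKM in ABR4. Its log2 ratio was 3.36 ± 0.80 (SE). A second gene of the GT37 family, Bradi3g58040, was at 12.6 FPKM in ABR8 and 14.3 FPKM in KOZ1. The family GH16 enzymes, which cut and rejoin xyloglucan, were not called. The most abundant of them, Bradi3g18590, was at 201 FPKM (116 to 287) in ABR8 and 117 FPKM (75.6 to 158) in KOZ1, with overlapping limits.

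Other glycosyltransferases and wall polymer genes had 2 calls in 16, both towards ABR8, and 14 members above 0. All came from the cell wall list, so a lean above 0 was built in. Bradi3g16927, described as a transaldolase (chromosome 3, 15110271 to 15115702), an enzyme of the pentose phosphate pathway, was at 25.5 FPKM (16.7 to 34.3) in ABR8, 8.80 FPKM (5.23 to 12.4) in KOZ1 and 37.3 FPKM in ABR4. Its log2 ratio was 1.53 ± 0.39 (SE). Bradi1g20890, described as a putative sucrose synthase of family GT4, which splits sucrose to supply sugar nucleotides, is split over a pair of overlapping loci in the table. The called locus (chromosome 1, 16788422 to 16794374) was at 3.29 FPKM (1.76 to 4.82) in ABR8 and 0.184 FPKM (0 to 0.445) in KOZ1, but the other was at 2.25 FPKM in ABR8 and 2.46 FPKM in KOZ1. The direction of this gene is therefore uncertain. Of the uncalled members, Bradi1g76460 (family GT77) was at 11.7 FPKM (6.62 to 16.8) in ABR8 and 3.37 FPKM (1.32 to 5.42) in KOZ1, with limits that did not overlap. The epimerase gene Bradi5g12260 was at 9.11 FPKM in ABR8 and 3.59 FPKM in KOZ1, whereas the epimerase genes Bradi4g34430 and Bradi3g53830 were at 0.02 and -0.04 on the log2 scale.

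The remaining wall families had no call. The 5 pectin genes ranged from 0.27 to 0.90 on the log2 scale, all above 0. They too came from the cell wall list, so a lean above 0 was built in. The polygalacturonase-family gene Bradi2g18030 (GH28), whose family cuts pectin, was at 64.8 FPKM (39.8 to 89.8) in ABR8 and 37.7 FPKM (25.2 to 50.2) in KOZ1. The pectin methylesterase gene Bradi2g11860, whose enzyme class removes methyl groups from pectin, was at 17 FPKM (10.3 to 23.7) and 9.12 FPKM (5.57 to 12.7). For both genes the limits of ABR8 and KOZ1 overlapped. Among the 13 other glycoside hydrolases, Bradi1g29880 (GH19, the chitinase family) was at 5.50 FPKM (2.04 to 8.97) in ABR8 and listed at 0 in KOZ1 in the controls of all 3 times, but was not called at T0. The gene Bradi3g16307, labelled CSLF after the synthases of mixed-linkage glucan, was at 72.1 FPKM (41.8 to 102) in ABR8 and 45.0 FPKM (30.0 to 60.1) in KOZ1. The 8 laccase, copper protein and cinnamyl alcohol dehydrogenase genes, which act in lignin formation or bind copper, had 3 members above 0 and 5 below. The described cinnamyl alcohol dehydrogenase Bradi4g29780 was at 17.5 FPKM in ABR8 and 30.2 FPKM in KOZ1.

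Outside the wall, the 14 cytochrome P450 genes, which encode haem-containing oxygenases, had 1 call in each direction, 6 members above 0 and 8 below. Bradi1g69330 (chromosome 1, 67996879 to 67998921) was at 14.1 FPKM (8.19 to 20.1) in ABR8, 2.83 FPKM (1.22 to 4.43) in KOZ1 and 2.38 FPKM in ABR4, a log2 ratio of 2.32 ± 0.52 (SE). Bradi1g59680 (chromosome 1, 58893153 to 58895313), described as an abietadienol hydroxylase, was at 0.916 FPKM (0.207 to 1.63) in ABR8, 4.74 FPKM (2.56 to 6.93) in KOZ1 and 5.97 FPKM in ABR4, a log2 ratio of -2.37 ± 0.66 (SE). This call was lost in the z-test on the difference. The widest error in the family was that of Bradi2g33670, at 0.0427 FPKM in ABR8 and 4.84 FPKM (2.50 to 7.17) in KOZ1, which was not called although ABR8 was listed at 0 in the controls of T1 and T2.

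Of 24 other oxidoreductases, 2 were called in each direction. Bradi3g28450, described as a sterol desaturase or fatty acid hydroxylase (chromosome 3, 29515078 to 29520617), was at 9.05 FPKM (4.88 to 13.2) in ABR8, 0.612 FPKM (0.104 to 1.12) in KOZ1 and 3.95 FPKM in ABR4, a log2 ratio of 3.89 ± 0.70 (SE). Bradi1g14580, described only by its iron binding (chromosome 1, 11543711 to 11545244), was at 18.9 FPKM (11.9 to 26.0) in ABR8 and 4.61 FPKM (2.15 to 7.08) in KOZ1. Both genes were called higher in ABR8.

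The oxidoreductases called higher in KOZ1 were Bradi5g00810 and Bradi3g11060. Bradi5g00810 is described as a 12-oxophytodienoic acid reductase, an enzyme class of jasmonate synthesis (chromosome 5, 781942 to 783671), and was at 33.1 FPKM (21.6 to 44.6) in ABR8, 85.0 FPKM (57.5 to 113) in KOZ1 and 49.1 FPKM in ABR4. Of the other described reductases of this class, Bradi2g35900 was at 6.35 FPKM in ABR8 and 1.62 FPKM in KOZ1 and was not called, so the class had no common direction. Bradi3g11060, described with a 5-aminolevulinate synthase activity (chromosome 3, 9458780 to 9462266), was at 12.2 FPKM (7.79 to 16.6) in ABR8 and 29.9 FPKM (20.1 to 39.6) in KOZ1, and its call was lost in the z-test on the difference.

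A ferrous iron transporter gene was called higher in KOZ1. Bradi4g29720 (chromosome 4, 35181737 to 35187308) was at 8.23 FPKM (4.81 to 11.7) in ABR8, 37.6 FPKM (25.1 to 50.0) in KOZ1 and 2.66 FPKM (1.12 to 4.19) in ABR4, a log2 ratio of -2.19 ± 0.39 (SE). Bradi2g12880, described by an acyltransferase activity (chromosome 2, 11248168 to 11254719), was at 3.61 FPKM (1.97 to 5.25) in ABR8, 12.4 FPKM (8.15 to 16.7) in KOZ1 and 2.0 FPKM in ABR4. For both genes KOZ1 stood above ABR8 and ABR4 with limits that did not overlap theirs. The 8 sugar transporters and the 7 hormone and transcription genes had no call.

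**Figure D3:**
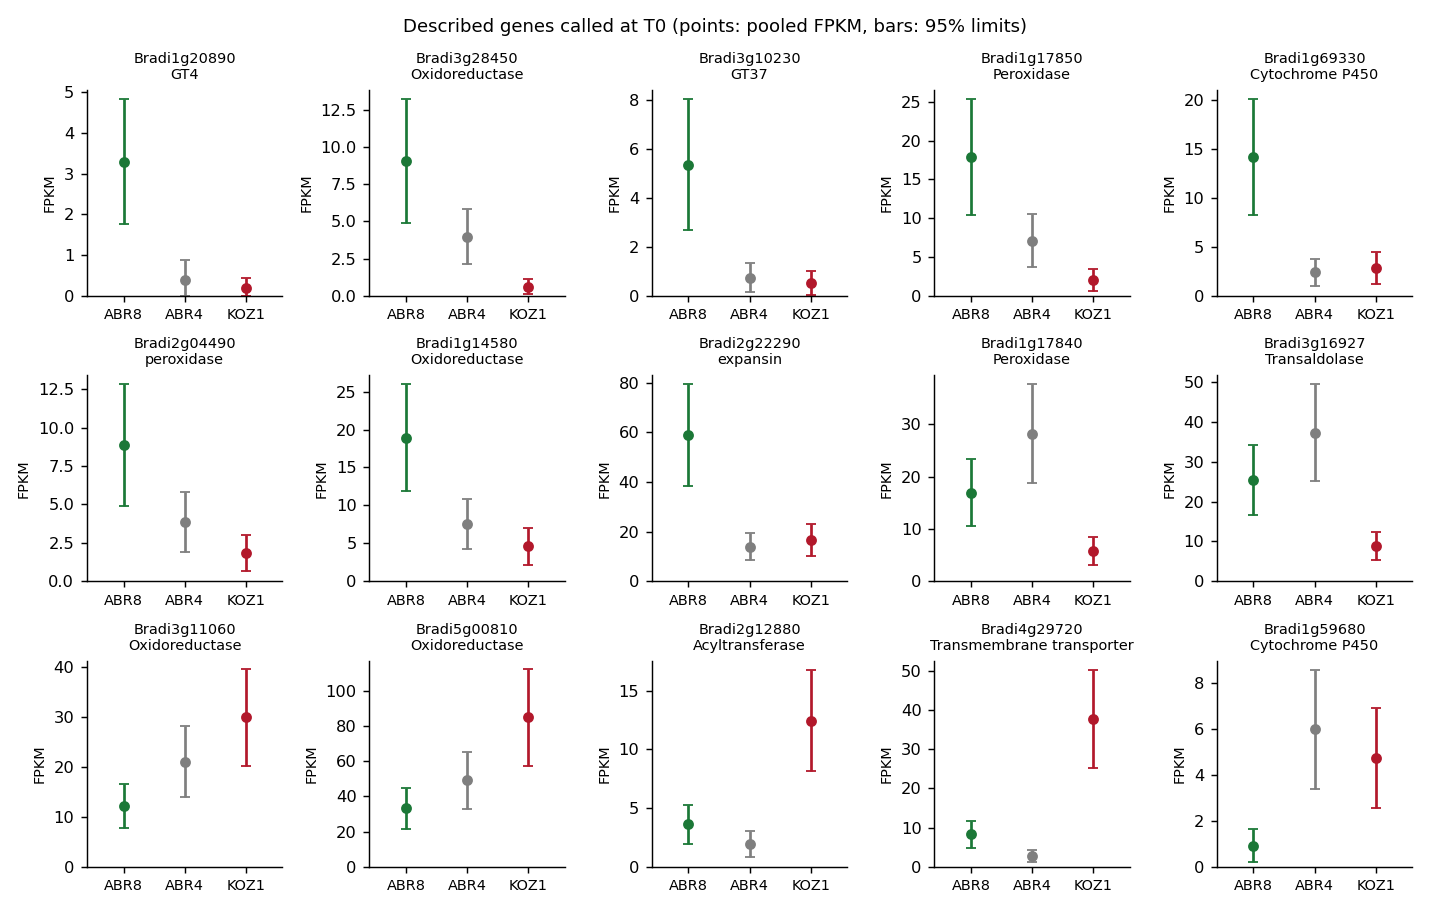
Pooled FPKM at T0 of the 15 described genes called at T0 in ABR8 (green), ABR4 (grey) and KOZ1 (red), with bars for the authors' 95% limits and a separate y axis for each gene. The upper 10 panels are the genes higher in ABR8 and the last 5 those higher in KOZ1, and in 2 of the upper panels, Bradi1g17840 and Bradi3g16927, ABR4 stands highest.

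Genes with a name in RefSeq other than a locus number gave a group that was not picked on these samples. Of 54 such loci, 42 reached 1 FPKM and 0 were called in either direction by the z-test. The shares of all loci at 1 FPKM or more were 1.45% and 1.44%, so 0 calls in 42 loci is near them. At an unadjusted p of 0.05, 1 of the 42 passed in each direction. Among all 18741 loci at 1 FPKM or more, 959 and 822 passed, and of all loci tested 3.70% and 3.21%. The 42 loci had a median log2 ratio of 0.04. They included 7 SnRK2 kinases, which carry the abscisic acid and osmotic stress signal, at -0.54 to 0.39 on the log2 scale. The 9 MAP kinase and MAP kinase kinase genes, of a phosphorylation cascade, lay between -0.38 and 0.23. For example, MPK3 was at 16.9 FPKM in ABR8 and 17.4 FPKM in KOZ1, and MPK6 at 32.8 and 28.5 FPKM. The cold-response factor CBF4 (Bradi4g35600) was at 0.753 FPKM in ABR8 and 3.28 FPKM in KOZ1. Bradi2g36910, the other gene at the unadjusted threshold, was at 40.0 and 19.0 FPKM.

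The genotype ABR4 was more often near the lower than the higher level for the loci higher in ABR8. On the log2(FPKM + 1) scale ABR4 at T0 was nearer KOZ1 for 192 of the 272 loci higher in ABR8 and nearer ABR8 for 80. Of the 270 loci higher in KOZ1, it was nearer KOZ1 for 174 and nearer ABR8 for 96. In both sets, then, ABR4 lay nearer KOZ1 for the larger part of the loci. The median level in ABR4 was 2.80 FPKM for the loci higher in ABR8 and 6.24 FPKM for those higher in KOZ1. These loci were chosen by a difference of ABR8 from KOZ1, so no test was made of the shares.

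By the type that RefSeq gives the gene at the same place, 173 of the loci higher in ABR8 and 172 of those higher in KOZ1 were protein coding, 14 and 28 were long noncoding, and 10 and 7 were pseudogenes. Among all 18741 loci these types numbered 14598, 831 and 231. By chromosome, the share of loci called higher in ABR8 ran from 1.20% on chromosome 2 to 2.32% on chromosome 5, and the share higher in KOZ1 from 1.11% on chromosome 2 to 1.92% on chromosome 4. Of the called loci, 43 stood in 21 runs of neighbouring loci called the same way. Only loci at 1 FPKM or more counted as neighbours, so other loci can lie between them. How many runs the shares called would give alone was not worked out. One of the runs was the pair of peroxidase genes above, and another was Bradi4g43450 with Bradi4g43460, at 7.96 FPKM in ABR8 and listed at 0 in KOZ1. The longest run had 3 loci on chromosome 3 and held Bradi3g48760, at 0.0927 FPKM in ABR8 and 34.4 FPKM in KOZ1.

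The control plants of T1 and T2 are other plants than those of T0 and repeat the comparison. At T1, 180 of the 272 loci higher in ABR8 were called the same way (66.2%, against 1.99% of all 27297 loci tested), and 215 of the 270 loci higher in KOZ1 (79.6%, against 2.10%). At T2 the counts were 174 (64.0%, against 1.51% of 26825 loci tested) and 191 (70.7%, against 1.46%). Called at all 3 times were 140 loci higher in ABR8 and 174 higher in KOZ1, whereas 58 and 38 were called that way at T0 and at neither later time. Of these 58, 49 were called in neither direction at T1 and T2, as were all 38. The genotypes again had no lane code in common at T1 or at T2, so the repeat does not separate lane from genotype. With the ABR8 group titled drought in place of the one titled control, 119 and 100 of the T0 calls were met at T1, and 175 and 193 at T2.

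**Figure D4:**
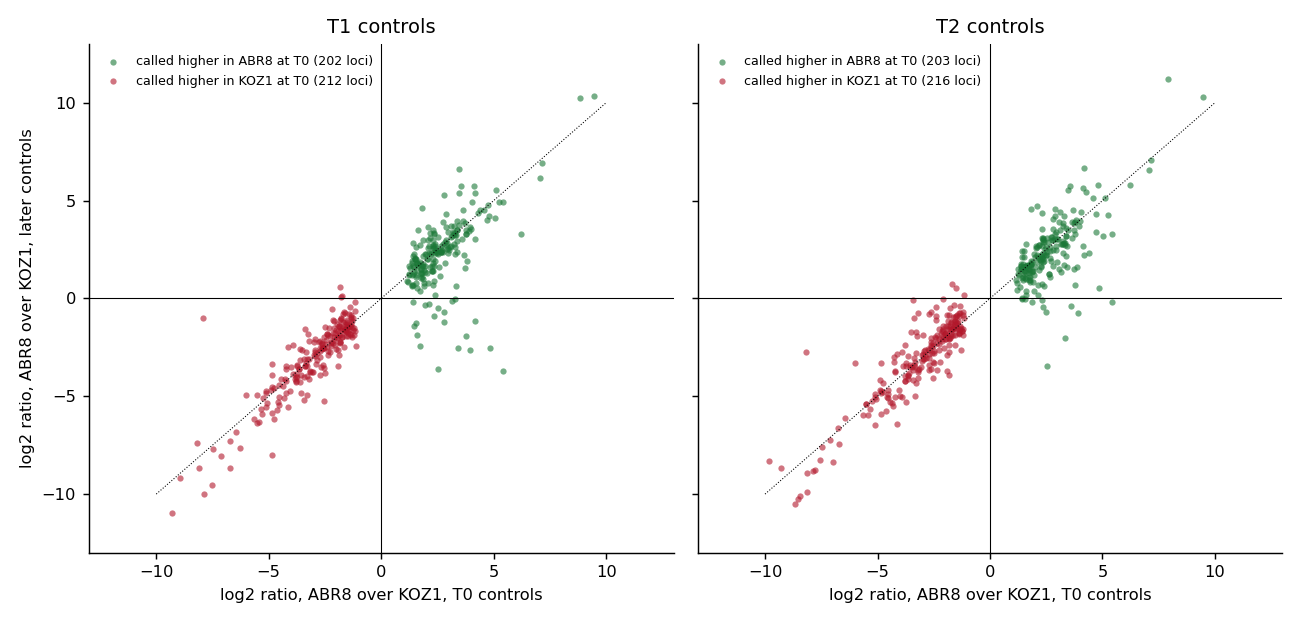
Log2 ratio of ABR8 to KOZ1 at T0 (x axis) and in the controls of T1 (left) or T2 (right, y axes), for the called loci above 0 in all 4 groups, 202 and 203 higher in ABR8 (green) and 212 and 216 higher in KOZ1 (red). Most points lie near the dotted line of equal ratios, and a group of green points falls below 0 at T1.

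Of the described genes, those called towards ABR8 at all 3 times were Bradi2g22290 (expansin-A4), Bradi3g10230 (xyloglucan fucosyltransferase), Bradi3g16927 (transaldolase), Bradi1g14580 and the called locus of Bradi1g20890. All of these but Bradi1g14580 are in the study's cell wall list. The clustering behind that list used the T1 and T2 groups too, so their repeat at those times is not independent evidence. Bradi3g10230 was at 6.09 and 0.543 FPKM in the ABR8 and KOZ1 controls of T1 and at 5.29 and 0.572 FPKM in those of T2. Bradi3g16927 was at 18.3 and 2.96 FPKM at T1 and at 8.45 and 1.58 FPKM at T2. The transaldolase gene thus had lower values at the later times in both genotypes, a change that was not tested, with ABR8 above KOZ1 at each.

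Those called towards KOZ1 at all 3 times were Bradi2g12880 (acyltransferase) and Bradi3g11060. Bradi2g12880 was at 6.14 and 18.8 FPKM in ABR8 and KOZ1 at T1 and at 4.58 and 18.6 FPKM at T2. The iron transporter gene Bradi4g29720 was at 14.5 and 20.7 FPKM at T1, which was not called, and at 10.9 and 37.7 FPKM at T2, which was. The reductase gene Bradi5g00810 was not called at either time, at 26.9 and 52.3 FPKM at T1 and 19.1 and 32.3 FPKM at T2.

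The expansin difference was larger in the later controls. Bradi2g22290 was at 164 FPKM (109 to 218) in ABR8 and 6.74 FPKM (2.95 to 10.5) in KOZ1 at T1, and at 172 FPKM (113 to 230) and 7.27 FPKM (3.83 to 10.7) at T2. A test of the change of the log2 ratio from T0 to T2, a z-test over both pairs of groups, gave a change of 2.73 ± 0.58 (SE), which passed the threshold. The limits of ABR8 at T0 did not overlap those of ABR8 at T1, whereas those of KOZ1 at T0 and T1 overlapped.

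That test called 17 of the 22423 loci above 0 in all 4 groups (0.0758%, with 287 at an unadjusted p of 0.05), all at 1 FPKM or more at T0. The ratio moved towards ABR8 in 9 of them and towards KOZ1 in 8. Of the 542 loci called at T0, 6 of those higher in ABR8 and 1 of those higher in KOZ1 were among them. The T0 values behind those calls also enter this test, which favours a move back towards 0 among them. Bradi2g43330 turned over: it was at 8.63 FPKM (4.49 to 12.8) in ABR8 and 1.49 FPKM (0.351 to 2.62) in KOZ1 at T0, but at 0.717 FPKM (0.0231 to 1.41) and 7.96 FPKM (3.85 to 12.1) at T2. The values at T1 were 0.707 and 8.71 FPKM, close to those at T2. For the 1 gene higher in KOZ1, Bradi2g60340, ABR8 was at 7.64, 16.6 and 58.6 FPKM at T0, T1 and T2 and KOZ1 at 24.5, 28.6 and 34.8 FPKM.

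The same test between T0 and T1, added after the values were seen, called 76 of 22695 loci (0.335%), of which 71 were at 1 FPKM or more at T0. In 61 of these 71 the level moved more between T0 and T1 in KOZ1 than in ABR8, on the log2 scale. They held 16 of the loci called higher in ABR8 at T0 and 1 of those higher in KOZ1. Here too the T0 values enter both the call and the change. In the T1 controls 11 loci higher in ABR8 at T0 were called higher in KOZ1, and 0 loci went the opposite way in the z-test.

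All 11 were lower in KOZ1 at T0 than in its controls of T1, and those given here are named because of that turn. Bradi1g09410 was at 63.9 FPKM (41.9 to 85.9) in ABR8 and 6.01 FPKM (3.02 to 9.0) in KOZ1 at T0, and at 14.1 FPKM (8.44 to 19.8) and 81.2 FPKM (60.4 to 102) at T1. Bradi1g25517 was at 21.1 and 1.52 FPKM at T0 and at 15.9 and 60.2 FPKM at T1. In the KOZ1 drought group of T1 these genes were at 7.42 and 2.47 FPKM, near the T0 level of KOZ1. The peroxidase gene Bradi1g17840 had the same order, at 12.3 FPKM (7.55 to 16.9) in ABR8 and 29.5 FPKM (18 to 41) in KOZ1 at T1, and 8.20 FPKM in the KOZ1 drought group of T1. Its neighbour Bradi1g17850 was at 9.44 and 10.2 FPKM in the controls of T1, with no difference called. Thus the higher level of both peroxidase genes in ABR8 was not met in the controls of T1. In those of T2, Bradi1g17850 was at 17.2 FPKM (10.8 to 23.6) in ABR8 and 6.64 FPKM (2.96 to 10.3) in KOZ1, with limits that did not overlap but no call, and Bradi1g17840 was at 24.5 and 25.3 FPKM.

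**Figure D5:**
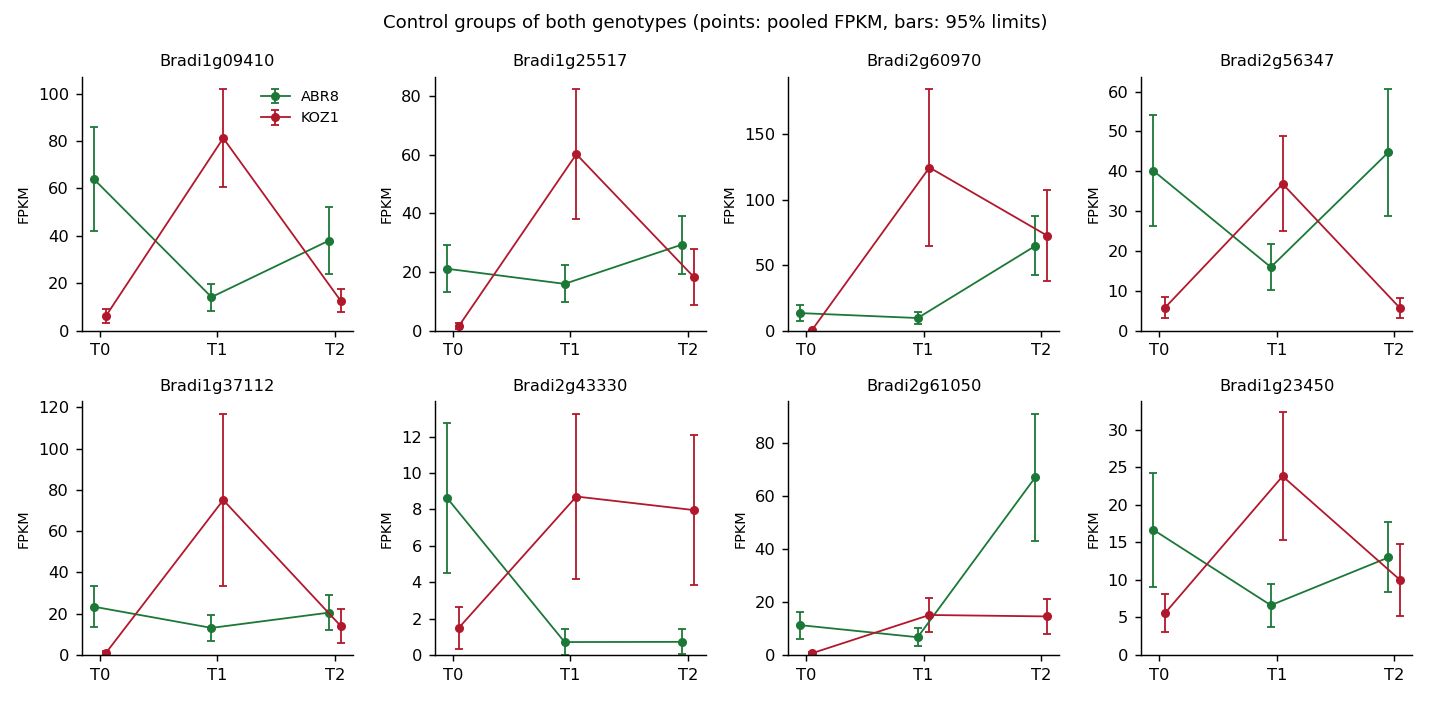
Pooled FPKM in the control groups of ABR8 (green) and KOZ1 (red) at T0, T1 and T2, with bars for the authors' 95% limits and a separate y axis for each gene, for the 8 genes called higher in ABR8 at T0 that had the strongest test result for a change of the ratio from T0 to T1. In all 8 panels KOZ1 stands below ABR8 at T0 and above it at T1. At T2 the genotypes lie in either order.

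In a comparison added after the values were seen, the loci that differed at T0 were followed into the drought response of KOZ1 at T2, which shares no plants with T0. Of all 26286 loci tested there, 3.77% were higher and 4.57% lower under drought by the same rule. Of the 270 loci higher in KOZ1 at T0, 63 were lower under drought (23.3%) and 7 higher (2.59%), against 6.35% and 4.66% of all 18741 loci. Of the 272 loci higher in ABR8, 29 were lower (10.7%) and 16 higher (5.88%). Both sets were chosen by a difference that includes the level of KOZ1 at T0. That level had a median of 11.5 FPKM for the loci higher in KOZ1 and 1.20 FPKM for those higher in ABR8. For all 18741 loci it was 6.68 FPKM. A fall from a low level is harder to call, so the shares of both sets are not directly comparable. All of these shares also depend on the scaling of the T2 groups. With both KOZ1 groups scaled to the same total FPKM, 40 of the 270 loci higher in KOZ1 were lower (14.8%) and 39 higher (14.4%), against 2.90% and 17.6% of all loci. Of the 272 loci higher in ABR8, 23 were then lower (8.46%) and 34 higher (12.5%), so the order of these counts turned. In both sets and under both scalings, the share called lower was above that of all loci. Both sets hold only loci that had already passed a z-test at T0, which was not required of all loci. The shares of the sets and of all loci are therefore not directly comparable either, and no conclusion is drawn from them.

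In KOZ1 at T2, the iron transporter gene Bradi4g29720 was at 37.7 FPKM in the controls and 3.75 FPKM under drought, and Bradi5g00810 at 32.3 and 0.768 FPKM, both called lower. Bradi3g11060 was called lower as well, at 28.4 and 7.62 FPKM. Bradi2g12880 was at 18.6 and 25.1 FPKM, which was not called. Of the genes higher in ABR8 at T0, Bradi2g22290 was at 7.27 and 1.37 FPKM in KOZ1 and was called lower, whereas Bradi3g28450 was at 0.737 and 4.33 FPKM and was called higher.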

How the data were processed

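The series holds RNA-seq of 45 plants in 15 groups of 3 libraries. By the methods and the submitters' processing notes, reads were trimmed with Trim Galore (0.4.1), mapped with TopHat2 (2.1.1) and Bowtie2 (2.2.9) to Brachypodium assembly v3.0 (annotation v3.1), and quantified by the authors with Cufflinks and Cuffdiff (2.2.1). The deposited values are pooled FPKM per group with 95% limits, and libraries cannot be read singly. The depth of a library is unknown from the table. The table has no product names, so lists of genes by product could not be formed, and descriptions came from the study's tables and symbols from RefSeq (50% reciprocal overlap, 15678 loci matched). Columns holding other per-sample values numbered 0.

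Standard errors were (upper limit - FPKM)/1.96. Groups were compared by a two-sided z-test on log FPKM, or on the FPKM difference where a group was at 0, with Benjamini-Hochberg adjustment over all loci. The limits come from a model of the spread between the 3 plants of a group, so p-values rest on that model. A locus was called at adjusted p of 0.05 or less and 2-fold or more. Of the loci at 1 FPKM or more, 2 in ABR8 and 1 in KOZ1 had standard errors under 0.1 of the level. Simulated data were made for the 24223 loci above 0 in both genotypes, with the true errors given to the test. They do not cover the 68 and 47 calls with a group listed at 0. The test found 109 of 200 genes given a 4-fold change (85 of 103 with relative errors up to 0.25), and 0 with the sign turned. Of 123 calls, 14 were unchanged loci, 0 of them with relative errors up to 0.25. Rank rules named, in each direction, the called loci with 1 identifier of largest ratio, of highest level against under 1 FPKM, and of largest FPKM difference, 23 genes towards ABR8 and 24 towards KOZ1. None had a description, so only the first by ratio and the first by level are given by identifier. Described genes and those in the tests of change were also named, the rest being counted by family. The loci, lists and tests were chosen with earlier results of these data known, and families were grouped after values were seen. Python 3.11.15, numpy 2.4.6, scipy 1.17.1 and pandas 2.3.3 were used.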

Additional observations from a re-analysis of the deposited data

Results flagged for a closer look

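The difference between ABR8 and KOZ1 changed with time at some loci. From the controls of T0 to those of T2, the log2 ratio of ABR8 to KOZ1 changed in 17 loci by a z-test of the change itself (adjusted p of 0.05 or less, 2-fold or more), and from T0 to T1 in 71 loci at 1 FPKM or more at T0. The 7 genes that had also been called at T0 are given by their change from T0 to T2. Their T0 values enter both the call and the change, which favours a move back towards 0. Only Bradi2g22290 moved further in its T0 direction. The ratio moved towards KOZ1 by -6.01 on the log2 scale for Bradi2g43330, which was lower in ABR8 at T2. It moved by -5.58 for Bradi2g60970, where KOZ1 was at 0.314 FPKM at T0 and 72.6 FPKM at T2. It moved by -5.36 for Bradi2g51120, where ABR8 was at 7.23 FPKM at T0 and 0.433 FPKM at T2. The change was -3.10 for Bradi1g25517 and -2.79 for Bradi1g66980. Towards ABR8, it was 2.73 for the expansin gene Bradi2g22290 and 2.43 for Bradi2g60340. Lane codes of ABR8 and KOZ1 differed at each time, and their part in these changes was not tested.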

How the results depend on the processing

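No paired analysis was possible because the table holds 1 pooled value per group, and for the same reason no replicate could be left out. At an unadjusted p the T0 counts were 959 (ABR8) and 822 (KOZ1), with limits that do not overlap 665 and 703, and, when ABR8 and KOZ1 each had to reach 1 FPKM, 143 and 129. The other alternatives gave 207 to 300 loci for ABR8 and 200 to 319 for KOZ1. A z-test on the FPKM difference gave 255 and 319, of which 213 and 218 were shared with the 272 and 270. Scaling to a common median shifted log2 ratios by -0.03 (252 and 281 loci) and scaling to the same sum by 0.08 (300 and 250 loci). The share of T0 calls met at T1 was 72.9%, and 40.4% with the ABR8 group titled drought. The cause was not tested. At an unadjusted p, the changes of ratio numbered 287 (T2) and 519 (T1), the cell wall genes 11 and 1, and the described genes 21 and 14. Of 98 named genes with a ratio, 10 lost their call in the z-test on the difference and none of the 98 gained an opposite call. Low levels limit the calls: wide limits left ratios such as that of Bradi2g33670 uncalled.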
